A study of Homo sapiens with 4 samples.

Results

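The genes that carry a cell from G2 through mitosis were followed in MDA-MB-231 cells transfected with a FOXC1 plasmid or with the control vector. The set holds 55 genes, named by symbol for their roles in cell division: cyclins and entry kinases, the spindle checkpoint, kinetochores, spindle motors, spindle assembly proteins, cytokinesis, and chromosome and passenger proteins. Of these, 54 had a probe set of their own, among 18417 genes measured. CENPA, the centromeric histone, was represented by a probe set shared with SLC35F6 and is given no value. SGOL1, the shugoshin that protects centromeric cohesion, is called SGO1 below. BIRC5 had 2 probe sets of its own, and the brighter one was used.

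MDA-MB-231 is a human breast cancer line of basal-like, mesenchymal character that is known to carry mutant p53, and FOXC1 is a forkhead transcription factor. The vector group and the FOXC1 group each hold 2 samples that the labels call biological replicates, 4 arrays in all. Both groups were grown in DMEM with 10% fetal bovine serum, penicillin and streptomycin and received their plasmid with Lipo2000, so that the control cells went through transfection too. Whether expression was transient or stable, from pools or clones, and how long after transfection RNA was taken were not given in the sources used here, and the FOXC1 transcript was not analysed here. Nothing in the labels says that the replicates came from separate transfections, so the p-values may not cover the spread between transfections. They rest on the spread between these samples and, more heavily, on that of other genes of similar signal (2 residual and 18.1 prior degrees of freedom).

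Each array is an Affymetrix human whole-transcript gene array (HuGene-1_0-st-v1) and gave a linear PLIER signal, the summary of a probe set's brightness. Changes are FOXC1 minus vector on the scale of log2(signal + 16), tested with limma over all named probe sets and adjusted by Benjamini-Hochberg, and a gene passed at an adjusted p under 0.05. The array has no read depth, and the number of arrays limits the precision. Median signals of the 4 arrays were between 489 and 512. The line's markers VIM, CD44, AXL, CAV1, MSN and EGFR gave signals from 4453 to 17018, while the oestrogen and progesterone receptor genes ESR1 and PGR lay between 89.8 and 273. Of the line's markers CD44 (log2 0.23) and EGFR (0.20) were higher in FOXC1 arrays. CAV1 (-0.28), MSN (-0.12) and VIM (-0.055) were lower, and AXL did not pass. The 4 measured leukocyte markers stayed between 62.6 and 542 and summed to 991 and 1138 in vector and 1113 and 1131 in FOXC1 arrays. The 6 fibroblast and endothelial markers lay between 40.5 and 1264 and summed to 2483 and 2743 in vector and 2131 and 2099 in FOXC1 arrays. The 6 luminal breast markers, ESR1 and PGR among them, summed to 10828 and 10954 in vector and 9292 and 9201 in FOXC1 arrays. The last 2 sums were lower in both FOXC1 arrays, but their genes did not share a direction. PECAM1 was lower (log2 -1.65) and DCN higher (0.63) among the former, and 4 did not pass. KRT18 (-0.22), FOXA1 (-1.35) and GATA3 (-0.17) were lower among the latter, while ESR1 (0.11), PGR (0.11) and CDH1 (0.030) did not pass. The part of these markers in the results was not tested.

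Entry into mitosis is driven by cyclin B bound to the kinase CDK1, which CDC25 phosphatases activate and WEE1 and PKMYT1 restrain. The spindle checkpoint then holds the ubiquitin ligase APC/C, with its activator CDC20, inactive until every kinetochore has captured microtubules. Most of these genes are transcribed late in the cell cycle. They are kept silent in G1 and quiescence by the DREAM complex and are switched on by MYBL2 (B-MYB) and FOXM1, which act largely through a promoter element named CHR, together with NF-Y at CCAAT boxes. In tumour samples their joint level is widely read as a measure of proliferation. In bulk RNA, fewer cells in G2 and mitosis and less RNA per such cell cannot be told apart.

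These promoter elements are shown here because they are what the set is known to share and the choice of genes did not use them. Of the 54 genes, 47 had an entry in the RefSeq promoter table (GRCh38.p14), which gives 250 bases before and 50 after each start, and the first entry was read where a gene had several. The 7 others are AURKA, BUB3, TTK, UBE2C, TPX2, BIRC5 and CDCA2. The CHR letters TTTGAA, on either strand, stood in 68.1% of the 47 windows and in 11.9% of the windows of all 14237 measured genes with an entry. CCAAT, on either strand, stood in 74.5% and 36.3%, and both in 55.3% and 4.86%. The 5 stretches below are the 150 bases before the start, 5′ to 3′ on the gene's strand, with TTTGAA and CCAAT or their reverse complements TTCAAA and ATTGG in capitals. They pair genes that were lower in FOXC1 arrays (DLGAP5, CCNB2, CDCA8) with genes that were not past the threshold (PLK1, CDC20). All 5 stretches hold both motifs, which 10 of 21 windows of the lower genes do. NDC80, the only gene that passed as higher, is not shown. Its TTTGAA match runs across the start, and its window holds no CCAAT.
DLGAP5 (chr14:55191586-55191735, minus strand): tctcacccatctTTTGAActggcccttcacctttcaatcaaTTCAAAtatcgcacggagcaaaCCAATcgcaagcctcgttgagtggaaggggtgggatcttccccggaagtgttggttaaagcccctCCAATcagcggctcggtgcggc
CCNB2 (chr15:59104996-59105145, plus strand): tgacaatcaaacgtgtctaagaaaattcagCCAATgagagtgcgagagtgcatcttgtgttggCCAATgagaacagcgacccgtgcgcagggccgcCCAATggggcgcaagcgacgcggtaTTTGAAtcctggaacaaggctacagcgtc
CDCA8 (chr1:37692366-37692515, plus strand): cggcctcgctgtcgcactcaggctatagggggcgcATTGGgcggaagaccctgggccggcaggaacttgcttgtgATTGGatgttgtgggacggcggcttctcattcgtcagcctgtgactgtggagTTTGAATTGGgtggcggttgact
PLK1 (chr16:23678739-23678888, plus strand): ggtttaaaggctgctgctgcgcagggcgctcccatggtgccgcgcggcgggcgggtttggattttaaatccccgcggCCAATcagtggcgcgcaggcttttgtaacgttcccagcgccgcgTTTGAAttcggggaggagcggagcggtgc
CDC20 (chr1:43358831-43358980, plus strand): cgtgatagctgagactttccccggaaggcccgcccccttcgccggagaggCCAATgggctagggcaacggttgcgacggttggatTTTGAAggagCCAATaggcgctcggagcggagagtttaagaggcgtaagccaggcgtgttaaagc

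CCNB2 and PLK1 hold TTTGAA at the same distance, 29 bases before the start, with 3 and 1 CCAAT boxes further up. In CDCA8 it lies 23 bases before the start and overlaps an inverted CCAAT box. In CDC20 it lies 65 bases before the start, between 2 CCAAT boxes, and in DLGAP5 2 copies lie 138 and 109 bases before it. Outside the stretches shown, the windows hold a further copy just after the start in DLGAP5 and another 178 bases before the start in CDC20. TTTGAA stood in 14 of 21 windows of genes that were lower and in 17 of 25 windows of genes not past the threshold, 66.7% and 68.0%. CCAAT stood in 66.7% and 84.0% and both motifs in 10 of 21 and 16 of 25 windows. These differences were not tested. A match is a description of the sequence and shows no binding.

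More of the 54 genes fell than rose, by small amounts. In limma 24 passed as lower in FOXC1 arrays (44.4%) and NDC80 alone as higher, against 15.5% lower and 15.9% higher among all 18417 genes. The median log2 change of the set was -0.067, a median change of -4.51%, while the median of all genes was 0.033. The 54 changes ran from -0.39 (DLGAP5) to 0.20 (NDC80), and 40 lay below 0. Both FOXC1 arrays lay below both vector arrays for 33 of the 54 (61.1%) and above them for 9 (16.7%), whereas 26.4% of all genes were separated downwards and 37.1% upwards. Among the 7244 genes in the signal range of the set these shares were 36.0% and 40.7%. For comparison, the median absolute log2 difference between replicates over the set was 0.022 in vector and 0.033 in FOXC1 cells. In all 4 pairings of a FOXC1 with a vector array the median change of the set was negative, from -0.055 to -0.072, and that of all genes positive, from 0.014 to 0.041.

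**Figure D1:**
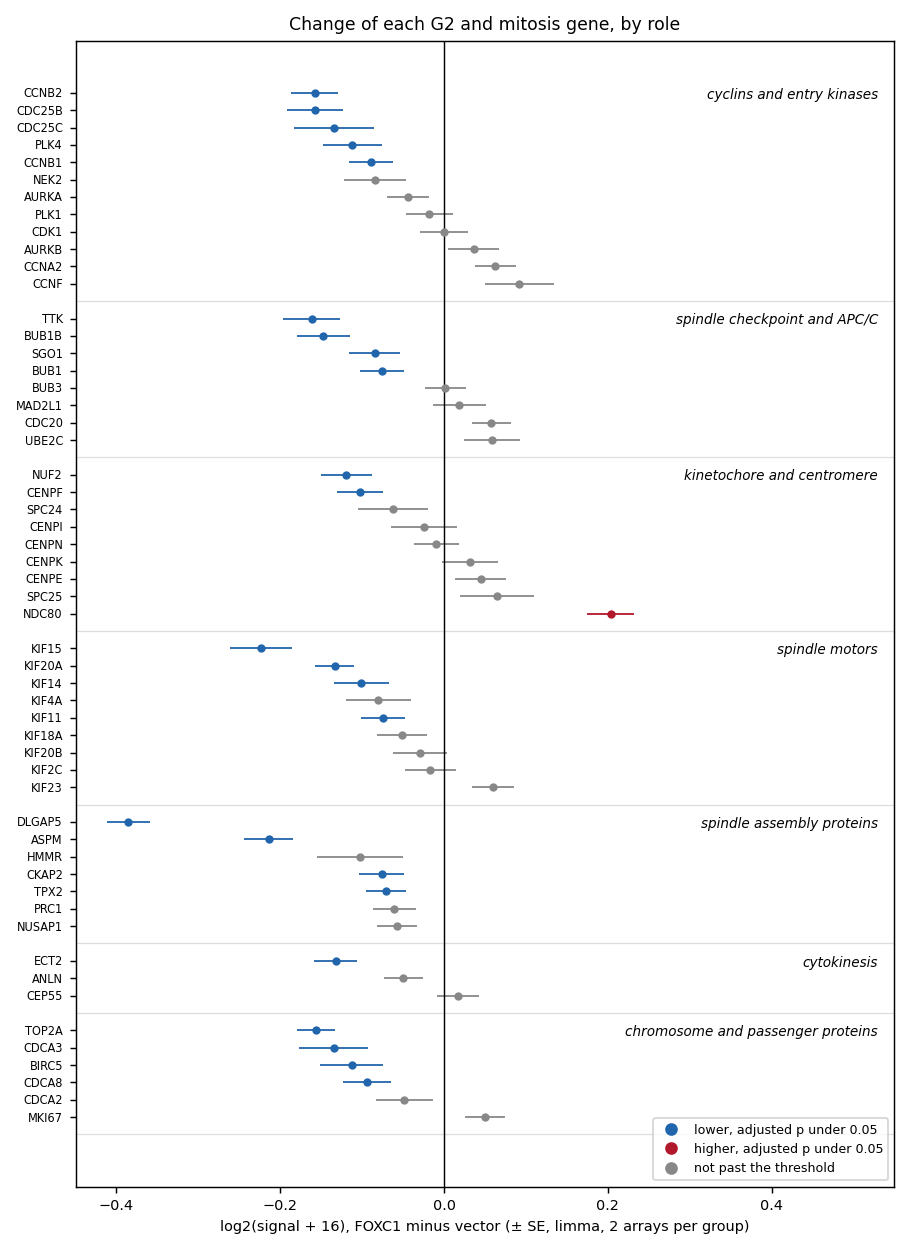
The horizontal axis gives the log2 change of signal, FOXC1 minus vector, for each of 54 genes grouped by role, with the SE of the limma fit over 2 arrays per group. Blue points passed as lower (24), the red point passed as higher (NDC80), and grey points did not pass (29). The changes run from -0.39 to 0.20.

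How many genes passed depended on the processing. The count of lower genes was 2 when limma's variance was not allowed to follow signal (DLGAP5 and ASPM), 12 without vector replicate 1, 12 without vector replicate 2 and 10 when the unnamed probe sets were fitted too. When each array was centred on its median level of named probe sets the counts were 13 lower and 7 higher, NDC80 with CCNA2, CCNF, CDC20, UBE2C, KIF23 and MKI67. They were 28 lower and 1 higher when it was centred on the median of all rows or, equally, on the median change, settings chosen after seeing the data. DLGAP5, ASPM and NDC80 passed under all 19 alternatives. All 25 genes that passed kept their direction in all 19, but this was nearly fixed beforehand and adds little. The groups of these 25 genes were separate, so leaving out 1 array could not reverse a change. Other variance moderation, filters on signal, the replicate block, another threshold and fitting all rows leave the change itself as it was. Each centring moved all genes by the same small amount.

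**Figure D2:**
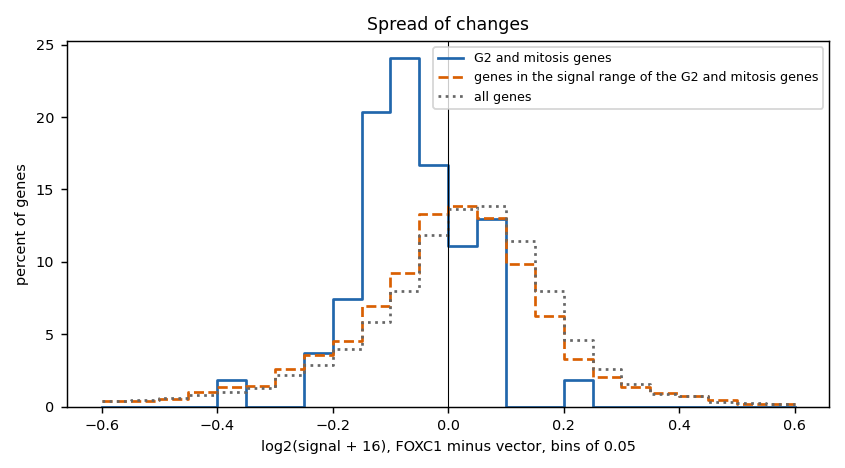
The horizontal axis gives the log2 change in bins of 0.05 and the vertical axis the percent of genes in each bin, for the 54 G2 and mitosis genes, the 7244 genes whose mean signal lies in the range of the set, and all 18417 genes. The set's curve peaks between -0.15 and -0.05, and the other curves peak between 0 and 0.1. Genes beyond 0.6 in either direction are outside the plot.

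The set was bright, with mean signals from 1224 to 11545, and bright probe sets have smaller errors: the median SE was 0.030 for the set and 0.065 for all genes. Among the 7244 genes whose mean signals lay in that range, 24.1% were lower and 26.0% higher, with a median log2 change of 0.011. Of the 4605 dimmest genes 3.52% were lower and of the 4604 brightest 22.7%.

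Of 12 cyclins and entry kinases, 5 were lower (41.7%) and 0 higher, with a median log2 change of -0.064. Among genes in the signal range of the set 24.1% were lower and 26.0% higher, the shares to read beside each role group. Both FOXC1 arrays lay below both vector arrays in 36.0% of those genes and above them in 40.7%. The B-type cyclins, which activate CDK1 at mitotic entry, were both lower. CCNB1 gave signals of 6942 and 6886 with vector and 6503 and 6491 with FOXC1 and fell by 6.02% (log2 -0.090 ± 0.027 SE, adjusted p = 0.0135). CCNB2 gave 7854 and 7685 (vector) against 7144 and 6786 (FOXC1) and fell by 10.4% (log2 -0.16 ± 0.029 SE, adjusted p = 1.85e-04). Neither cyclin had overlapping groups. CDC25 phosphatases remove the inhibitory phosphates from CDK1, and the family split. CDC25B and CDC25C, the members in this set, were lower. CDC25A, listed below with the G1 genes, was higher (log2 0.32, adjusted p = 2.64e-06 in limma). CDC25B gave 3835 and 3758 (vector) against 3371 and 3436 (FOXC1) and fell by 10.3% (log2 -0.16 ± 0.034 SE, adjusted p = 0.00114). CDC25C was the dimmest of these 12, with 1538 and 1538 (vector) against 1429 and 1372 (FOXC1), and fell by 8.88% (log2 -0.13 ± 0.049 SE, adjusted p = 0.0413). PLK4, the kinase that starts centriole duplication, gave 3512 and 3610.3 (vector) against 3242 and 3347 (FOXC1) and fell by 7.46% (log2 -0.11 ± 0.036 SE, adjusted p = 0.0202). In CDC25B, CDC25C and PLK4 both FOXC1 arrays lay below both vector arrays.

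CDK1, PLK1 and the Aurora kinases did not pass. CDK1 gave nearly the same signal in all arrays, 5383 and 5399.9 (vector) against 5382 and 5400.2 (FOXC1), a log2 difference of -4.2e-05 ± 0.029 SE. PLK1, which drives mitotic entry and spindle assembly, gave 10629 and 10958 (vector) against 11051 and 10282 (FOXC1) (log2 -0.018 ± 0.029 SE, adjusted p = 0.689), and its FOXC1 arrays lay on both sides of the vector arrays. AURKA, the centrosomal Aurora kinase, gave 7709 and 7785 (vector) against 7458 and 7565 (FOXC1) (log2 -0.044 ± 0.026 SE, adjusted p = 0.212), without overlap. AURKB, the kinase of the chromosomal passenger complex, gave 8729.8 and 8803 (vector) against 9372 and 8620.5 (FOXC1) (log2 0.036 ± 0.031 SE, adjusted p = 0.415). Only FOXC1 replicate 1 of AURKB lay above the vector arrays, and FOXC1 replicate 2 lay below them. Of the other 3, NEK2, which separates centrosomes, had a log2 difference of -0.084, cyclin A2 (CCNA2) one of 0.063 and cyclin F (CCNF) one of 0.092, with adjusted p = 0.0971, 0.0660 and 0.111 in limma. CCNA2 and CCNF had both FOXC1 arrays above both vector arrays.

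The spindle checkpoint genes split, with 4 of 8 lower (50%) and 0 higher in the group that also holds the APC/C factors. Genes in the signal range of the set were lower in 24.1% and higher in 26.0% of cases. TTK (MPS1), the kinase at the head of the checkpoint, gave 3633 and 3541 (vector) against 3189 and 3222 (FOXC1) and fell by 10.6% (log2 -0.16 ± 0.035 SE, adjusted p = 0.00107). BUB1B (BUBR1), which binds and blocks CDC20, gave 5064 and 4859.5 (vector) against 4435 and 4520.2 (FOXC1) and fell by 9.71% (log2 -0.15 ± 0.032 SE, adjusted p = 0.00112). BUB1, the kinase that recruits BUBR1 to kinetochores, gave 7427 and 7404 (vector) against 6910.2 and 7163 (FOXC1) and fell by 5.12% (log2 -0.076 ± 0.027 SE, adjusted p = 0.0388). SGO1, the shugoshin, gave 4762 and 4693 (vector) against 4429 and 4486 (FOXC1) and fell by 5.69% (log2 -0.084 ± 0.031 SE, adjusted p = 0.0434). None of these 4 had overlapping groups. The other checkpoint proteins MAD2L1 and BUB3 overlapped between groups: MAD2L1 gave 4094 and 4167 (vector) against 4242 and 4127 (FOXC1) (log2 0.019 ± 0.033 SE, adjusted p = 0.715), and BUB3 had a log2 difference of 0.0018 ± 0.025 SE. The APC/C activator CDC20 (log2 0.057 ± 0.024 SE, adjusted p = 0.0751) and the ubiquitin-conjugating enzyme UBE2C (log2 0.059 ± 0.034 SE, adjusted p = 0.212) did not pass, and both FOXC1 arrays of each lay above both vector arrays.

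Among 9 measured kinetochore and centromere genes, 2 were lower (22.2%) and 1 was higher (11.1%). The lower share was near the 24.1% of genes in the signal range of the set, of which 26.0% were higher. The group's median log2 change was -0.0093, a sign that depends on the scaling (0.014 with median centring, -0.051 with centring on the median of all rows). NDC80 and NUF2 encode the arms of one microtubule-binding complex, and they moved in opposite directions. NDC80 gave 5141 and 5118 with vector and 5935 and 5882 with FOXC1 and rose by 15.1% (log2 0.20 ± 0.029 SE, adjusted p = 9.57e-06). NUF2 gave 5599 and 5304 with vector and 5007 and 5026 with FOXC1 and fell by 7.93% (log2 -0.12 ± 0.032 SE, adjusted p = 0.00612). Their partners in the complex did not pass: SPC24 had a log2 difference of -0.062 (adjusted p = 0.305) and SPC25 one of 0.065 (adjusted p = 0.309) in limma. CENPF, a large coiled-coil protein of the outer kinetochore, gave 6648 and 6833 (vector) against 6212 and 6337 (FOXC1) and fell by 6.89% (log2 -0.10 ± 0.028 SE, adjusted p = 0.00718). CENPE, the kinetochore-bound kinesin, gave 4203 and 4246 (vector) against 4347 and 4368 (FOXC1) (log2 0.045 ± 0.032 SE, adjusted p = 0.317), with both FOXC1 arrays above both vector arrays. CENPI, CENPK and CENPN, of the inner kinetochore, overlapped between groups, with log2 differences of -0.024, 0.032 and -0.0093.

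Of 9 spindle motors 4 were lower (44.4%) and 0 higher, beside 24.1% and 26.0% of genes in the signal range of the set. The median log2 change of the motors was -0.075. Of the 9 motors 8 lay below 0 (88.9%), beside 47.0% of genes in that signal range. KIF15, a plus-end motor that can hold spindle poles apart, gave 3699 and 3591 (vector) against 3219.8 and 3021 (FOXC1) and fell by 14.4% (log2 -0.22 ± 0.038 SE, adjusted p = 8.69e-05). KIF11 (Eg5), the main motor that separates the poles, gave 6997 and 7161 (vector) against 6687 and 6752 (FOXC1) and fell by 5.06% (log2 -0.075 ± 0.027 SE, adjusted p = 0.0394). KIF20A and KIF14 act at the central spindle and in cytokinesis. KIF20A gave 10379 and 10194 (vector) against 9479 and 9269.8 (FOXC1) and fell by 8.85% (log2 -0.13 ± 0.024 SE, adjusted p = 1.64e-04). KIF14 gave 4521 and 4319 (vector) against 4086 and 4152 (FOXC1) and fell by 6.76% (log2 -0.10 ± 0.033 SE, adjusted p = 0.0252). The groups of all 4 motors were separate. The chromokinesin KIF4A (log2 -0.080, adjusted p = 0.146) and KIF18A, which damps chromosome movements (log2 -0.052, adjusted p = 0.224), did not pass in limma although both FOXC1 arrays lay below both vector arrays. KIF20B (-0.029) and the microtubule depolymerase KIF2C (-0.017) overlapped between groups on the log2 scale. KIF23, the motor of the centralspindlin complex, had both FOXC1 arrays above both vector arrays (log2 0.059, adjusted p = 0.0871).

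All 7 spindle assembly genes had both FOXC1 arrays below both vector arrays, and 4 of them passed (57.1%). Among genes in the signal range of the set 36.0% were separated downwards and 24.1% passed as lower. DLGAP5 (HURP), which stabilises microtubules near chromosomes, showed the largest change of the set. It gave 8446 and 8474 with vector and 6546 and 6397 with FOXC1 and fell by 23.5% (log2 -0.39 ± 0.026 SE, adjusted p = 2.01e-10). ASPM, which focuses microtubules at spindle poles, gave 5799 and 5773 with vector and 4921 and 5050.4 with FOXC1 and fell by 13.8% (log2 -0.21 ± 0.030 SE, adjusted p = 6.96e-06). CKAP2, a microtubule-associated protein, gave 6474 and 6467 (vector) against 6144 and 6128 (FOXC1) and fell by 5.15% (log2 -0.076 ± 0.027 SE, adjusted p = 0.0380). TPX2, the activator of AURKA on the spindle, gave 9522 and 9667 (vector) against 9261 and 9005 (FOXC1) and fell by 4.81% (log2 -0.071 ± 0.025 SE, adjusted p = 0.0325). HMMR (-0.10), PRC1 (-0.061) and NUSAP1 (-0.057), which bind and bundle microtubules, had log2 differences of similar size but adjusted p = 0.151, 0.0876 and 0.0884 in limma.

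**Figure D3:**
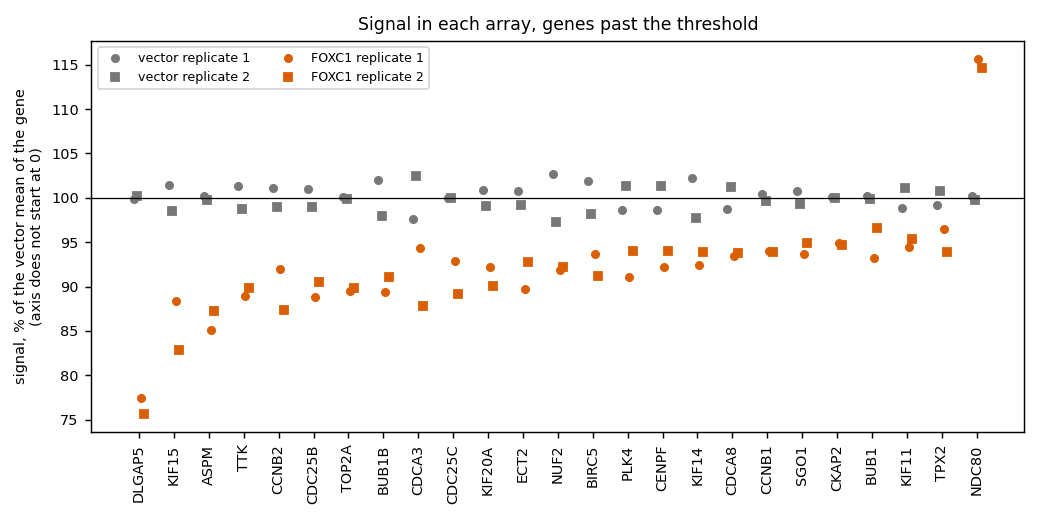
The vertical axis gives the signal of each array as a percent of the gene's vector mean, for the 25 genes that passed; grey marks are the 2 vector arrays, orange marks the 2 FOXC1 arrays, and the axis does not start at 0. In 24 genes both orange marks lie below both grey marks, and in NDC80 both lie above. The genes were picked for passing the threshold, which makes such separation likely and adds no further support.

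Of 3 cytokinesis genes ECT2, the exchange factor that activates RhoA at the cleavage furrow, was lower. It gave 8099.6 and 7974 (vector) against 7211 and 7452 (FOXC1) and fell by 8.77% (log2 -0.13 ± 0.027 SE, adjusted p = 5.27e-04). The contractile ring scaffold ANLN (log2 -0.050, adjusted p = 0.119) and the abscission factor CEP55 (log2 0.017, adjusted p = 0.658) did not pass in limma.

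Of 6 chromosome and passenger proteins 4 were lower (66.7%) and 0 higher, with a median log2 change of -0.10. Genes in the signal range of the set were lower in 24.1% and higher in 26.0% of cases. TOP2A, the topoisomerase that untangles sister chromatids, gave 10365 and 10349 with vector and 9273 and 9309 with FOXC1 and fell by 10.3% (log2 -0.16 ± 0.023 SE, adjusted p = 1.70e-05). BIRC5 (survivin) and CDCA8 (borealin) are partners of AURKB in the passenger complex. BIRC5 gave 2921 and 2814 (vector) against 2685 and 2615 (FOXC1) and fell by 7.53% (log2 -0.11 ± 0.039 SE, adjusted p = 0.0306). CDCA8 gave 5820.3 and 5969.9 (vector) against 5511 and 5531 (FOXC1) and fell by 6.32% (log2 -0.094 ± 0.029 SE, adjusted p = 0.0160). The second, dimmer BIRC5 probe set was lower too, with 438 and 389 in vector and 260.1 and 348 in FOXC1 arrays (log2 -0.44 ± 0.11 SE, adjusted p = 0.00329 in limma). CDCA3, a trigger of mitotic entry, gave 2794 and 2933 (vector) against 2700.4 and 2516 (FOXC1) and fell by 8.90% (log2 -0.13 ± 0.042 SE, adjusted p = 0.0182). MKI67, whose protein Ki-67 coats mitotic chromosomes and marks cycling cells, did not pass and had both FOXC1 arrays above both vector arrays: it gave 8302 and 8348 with vector and 8539 and 8703 with FOXC1 (log2 0.050 ± 0.025 SE, adjusted p = 0.138). CDCA2, a phosphatase partner on chromatin, had a log2 difference of -0.048 (adjusted p = 0.319).

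The set is spread over 20 chromosomes, with at most 8 genes on 1 (chromosome 1), so position was read beside each change. The 10 measured genes nearest to each member, 5 on each side in the RefSeq order, had a median log2 change whose own median over the 54 was 0.027. The genes of the set lay below their neighbours in 45 of 54 cases, and the median difference over all 54 was -0.10 on the log2 scale. The neighbours were not matched for signal, and their median lay close to the 0.033 of all genes. The count therefore adds little to the comparison of the set with all genes. The 24 lower genes all lay below their neighbours, which their choice as lower nearly fixes. NDC80 lies on chromosome 18, where 6 of its 10 neighbours were higher and 0 lower, with a median of 0.13 against its own 0.20. The thymidylate synthase gene TYMS is one of those neighbours (0.24). DLGAP5 on chromosome 14 had 5 of 10 neighbours lower and a median of -0.072 against its own -0.39. TTK on chromosome 6 had 4 of 10 neighbours lower and a median of -0.13 against its own -0.16. Of all genes 15.9% were higher and 15.5% lower. With 10 genes on each side, NDC80 had 10 of 20 neighbours higher and 0 lower (median 0.15). DLGAP5 then had 12 lower and 2 higher (-0.14), and TTK 5 lower and 2 higher (-0.12). Over the 54 genes, own change and neighbours' median had a Pearson correlation of 0.28, and of 0.40 with 10 on each side. The part of such regional differences in the changes of NDC80, DLGAP5 and TTK was not tested. With 5 neighbours on each side, 18 of the 24 lower genes had a positive neighbours' median, KIF14 the highest (0.15). The other 6 had a negative one: TTK, DLGAP5, ASPM (-0.056), CDCA3 (-0.041), CDC25C (-0.035) and CENPF (-0.023).

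**Figure D4:**
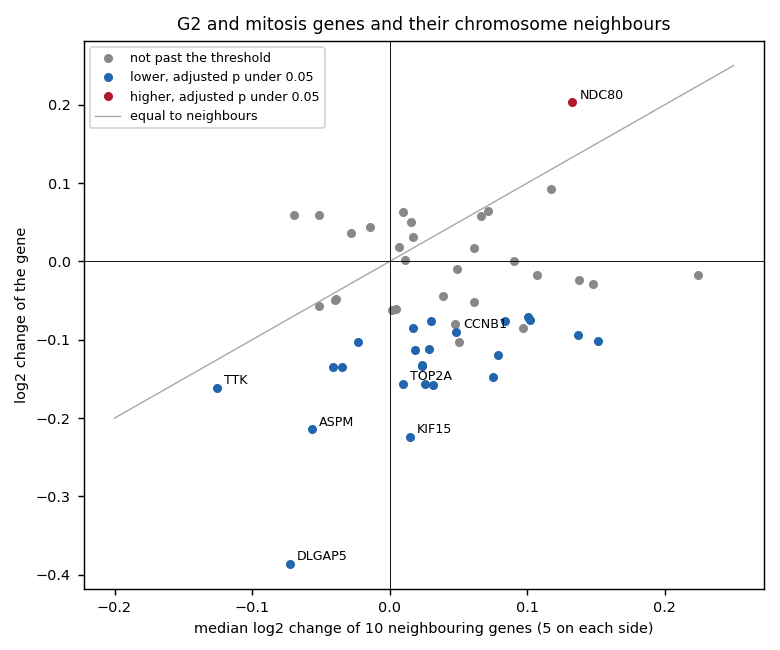
The horizontal axis gives the median log2 change of the 10 neighbouring measured genes and the vertical axis the gene's own log2 change, for 54 genes; the grey line marks equal values. Blue points are the 24 genes that passed as lower, 18 of them to the right of 0, and NDC80 (red) lies above the line with neighbours at 0.13.

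Among the regulators of these promoters some passed in each direction, at shares near those of all genes. Of 23 G2/M transcription factors and DREAM or E2F genes, none of them in the set, 4 were lower (17.4%) and 3 higher (13.0%), beside 15.5% and 15.9% of all genes, with a median log2 change of -0.028. FOXM1 gave 6373 and 6625 (vector) against 6502 and 6245 (FOXC1) (log2 -0.028 ± 0.030 SE, adjusted p = 0.526), and its groups overlapped. MYBL2 gave 6617 and 6886 (vector) against 7389.7 and 7098 (FOXC1), 1.07-fold higher (log2 0.10 ± 0.029 SE, adjusted p = 0.0108). The activator E2F3 was 1.24-fold higher (adjusted p = 3.20e-05), while the E2F partner TFDP2 was 1.16-fold lower (adjusted p = 4.83e-05) and the DREAM pocket protein RBL2 (p130) 1.16-fold lower (adjusted p = 0.00664), all in limma.

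Of 11 brakes on mitotic entry 3 were higher (27.3%) and 2 lower (18.2%), beside 15.9% and 15.5% of all genes. Among genes in the signal range of the G2 and mitosis set 26.0% were higher and 24.1% lower. GADD45A, a stress-induced inhibitor of CDK1, gave 1951 and 1973 (vector) against 3048 and 3034 (FOXC1), 1.55-fold higher (log2 0.63 ± 0.039 SE, adjusted p = 5.03e-11). PKMYT1, the membrane-bound CDK1 inhibitory kinase, was 1.18-fold higher (adjusted p = 3.82e-05), whereas WEE1 gave 2204 and 2139 (vector) against 2183 and 2161 (FOXC1) (adjusted p = 0.997). CHEK1, the checkpoint kinase that keeps CDC25 in check, gave 5776 and 5736 (vector) against 4397 and 4194 (FOXC1), 1.34-fold lower (log2 -0.42 ± 0.032 SE, adjusted p = 1.01e-09). The CDK inhibitor CDKN1A (p21) gave 1879 and 1820.2 (vector) against 2237 and 2079.7 (FOXC1), 1.16-fold higher (adjusted p = 7.57e-04). CDKN1B (p27) was the other lower gene (log2 -0.15).

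Genes of the same structures that are not in the set moved in mixed ways. For comparison, 15.9% of all genes were higher and 15.5% lower, and 26.0% and 24.1% of genes in the signal range of the set. Of 27 other measured kinetochore genes 9 were higher (33.3%) and 4 lower (14.8%). In limma ZW10 was 1.31-fold lower (adjusted p = 1.53e-06), CENPM 1.21-fold higher (adjusted p = 1.12e-04) and ZWILCH 1.15-fold higher (adjusted p = 4.47e-06). ZW10 and ZWILCH belong to one complex, which brings dynein to kinetochores. Of 28 other spindle and midbody genes 10 were lower (35.7%) and 1, PIMREG, higher (3.57%), but 7 lower and 3 higher with median centring. Their largest decreases were in the augmin subunit HAUS4 (1.28-fold), the microtubule protein PSRC1 (1.26-fold) and citron kinase CIT (1.20-fold), with adjusted p = 2.00e-06, 2.15e-05 and 5.77e-06 in limma. Of 14 condensin and passenger genes 4 were lower (28.6%) and 0 higher: NCAPD3 (1.21-fold), NCAPG2 (1.12-fold), the passenger scaffold INCENP (1.11-fold) and NCAPD2. With median centring 3 of these 14 were higher as well. Of 19 APC/C subunits and substrates 6 were higher (31.6%) and 2 lower (10.5%). The largest changes were in ANAPC5 (1.32-fold higher, adjusted p = 1.31e-10), ANAPC2 (1.27-fold higher, adjusted p = 3.38e-05) and ANAPC16 (1.17-fold lower, adjusted p = 3.98e-04) in limma.

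Of 36 measured S phase genes 12 were higher (33.3%) and 2 lower (5.56%), beside 26.0% higher and 24.1% lower among genes in the signal range of the G2 and mitosis set, with a median log2 change of 0.025 beside -0.067 for the G2 and mitosis genes. With centring on the median of all rows that median was -0.016 and the counts were 7 higher and 3 lower, and with centring on the median change they were -0.0015, 8 and 3. Cyclin E1, CCNE1, which drives entry into S phase, gave 1206 and 1205 (vector) against 1646 and 1592 (FOXC1), 1.34-fold higher (log2 0.42 ± 0.049 SE, adjusted p = 8.07e-07). CCNE2 was 1.19-fold higher (adjusted p = 4.47e-06) and the replication factor GINS4 1.32-fold lower (adjusted p = 1.53e-06) in limma. Of 10 G1 cyclins, kinases and inhibitors 4 were higher (40%) and 1 lower (10%), and 5 lay above and 5 below 0. The lower one was cyclin D2: CCND2 gave 1208 and 1218 (vector) against 272 and 244 (FOXC1), 4.49-fold lower (log2 -2.17 ± 0.074 SE, adjusted p = 1.53e-15). CDC25A, the phosphatase of the G1 to S step, was 1.25-fold higher (adjusted p = 2.64e-06) and CCND3 1.19-fold higher (adjusted p = 4.64e-07), while CCND1 had a log2 difference of -0.039 (adjusted p = 0.260). The difference between the lists was not tested.

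**Figure D5:**
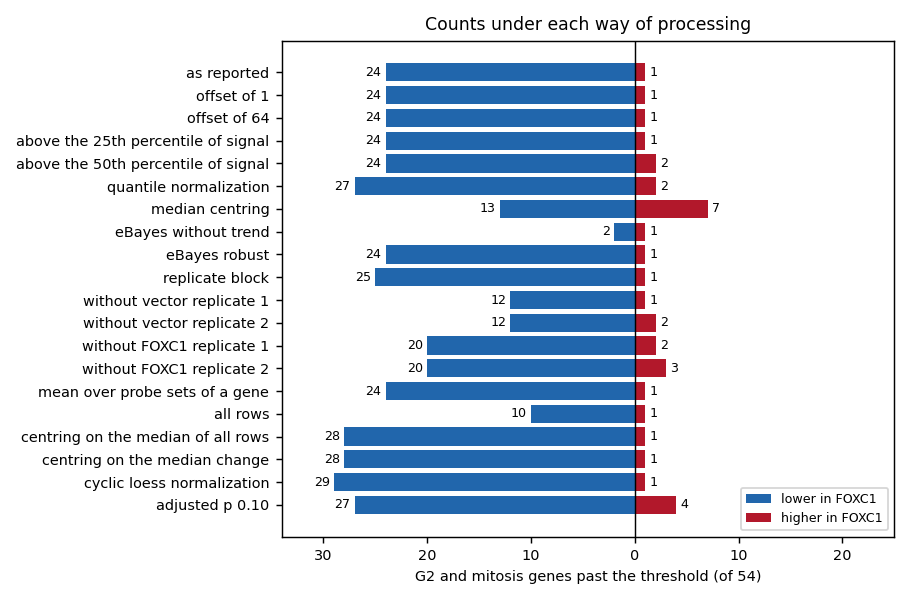
Bars give the number of the 54 genes past the threshold under each way of processing, lower to the left and higher to the right of 0. The counts of lower genes run from 2 to 29 over 19 alternatives, beside 24 as reported, and those of higher genes from 1 to 7.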

How the data were processed

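Total RNA of 4 MDA-MB-231 samples was hybridised to 1-colour Affymetrix arrays. Per the labels and the submitters' processing notes, the authors deposited gene-level PLIER signal from Affymetrix Expression Console, an intensity on a linear scale. The sources used here give no background step, normalization options or software versions. No further normalization was applied, and 16 was added before log2. Of 33297 probe sets 21214 carried a gene symbol in the platform annotation, 19460 of them 1 symbol and 1754 several.

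Differences came from limma 3.58.1 under R 4.3.3 over the named probe sets (lmFit, eBayes with a trend on signal, two-sided, 2 residual and 18.1 prior degrees of freedom), adjusted by Benjamini-Hochberg. A gene was read from its brightest probe set with 1 symbol. The fit was tested on simulated data, and the outcome of that test is not given here.

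The genes and lists were chosen with earlier results of these data known. Values in all arrays are given for every member that passed and, whatever their change, for CCNB1, CDK1, PLK1, AURKA, AURKB, MAD2L1, NDC80, CENPE, KIF11, TOP2A and MKI67, and up to 3 genes of each other list that passed are named, plus FOXM1, MYBL2, WEE1, CDKN1A and CCND1. Genes that complete a count and TYMS were named after their values were seen. Deviations of arrays with the same replicate number did not go together (correlation -0.015 across probe sets), so the number was a block only in an alternative. The other alternatives were offsets of 1 and 64, filters on signal, other normalizations and centrings, other variance moderation, leaving out each array, averaged probe sets, all rows and an adjusted p of 0.10.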

Additional observations from a re-analysis of the deposited data

How the results depend on the processing

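The count of lower genes among the 54 was between 20 and 29 in 14 of 19 alternatives, and the 24 lower genes all remained among those called in 11 of them. Lower genes numbered 13 with median centring, 2 without a variance trend, 10 with all rows fitted and from 12 to 20 when 1 array was left out. Higher genes numbered 2 above the 50th percentile of signal and with quantile normalization, 7 with median centring, 4 at an adjusted p of 0.10 and from 1 to 3 when 1 array was left out. The median log2 change was -0.090 with quantile normalization, -0.043 with median centring, and from -0.057 to -0.075 when 1 array was left out. Among the alternatives chosen after seeing the data it was -0.11 with centring on the median of all rows, -0.094 with centring on the median change and -0.085 with cyclic loess normalization. With 10 neighbours on each side, the median difference from neighbours was -0.088. With the replicate number as a block 25 genes were lower and 1 higher, and all 25 calls reported remained. No shift of the median of all genes passed 0.1 on the log2 scale. A search of a narrower promoter window found TTTGAA in 63.8% of the genes' windows. Array signal has no depth, and 2 arrays per group limit the precision.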

Other observations

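The median log2 level of the named probe sets was 9.65 and 9.64 with vector and 9.63 and 9.62 with FOXC1, lower in both FOXC1 arrays, while the median change of the 18417 genes was 0.033. The median change was 0.064 in the 4605 dimmest genes, then 0.047, 0.0044 and, in the brightest 4604, 0.016. Within the signal range of the G2 and mitosis genes 47.0% of genes lay below 0, beside 74.1% of the set.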
